A study of Mus musculus with 2 samples.

Results

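The heat shock proteins and chaperonins are the protein-folding machines of the cell together with their helpers. Here they were taken from the known gene table by gene symbol alone. The symbols were Hspa, Hspb, Hsph, Hspd, Hspe, Hsp90, Dnaja, Dnajb, Dnajc, Cct, Tcp1, Bag, Hsf1 and Hsf2. No level entered this rule, but it was set with earlier results of these data known. The rule found 87 of 23257 known genes, which fall into 11 families, and a further 8714 long non-coding RNAs of the series held none of them.

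Expression was measured by RNA-Seq in 1 condition, mouse neural stem cells (NSCs). These were cortical cells of E14.5 CD-1 mouse embryos, obtained commercially and grown undifferentiated as monolayers in a supplemented medium with the growth factors FGF and EGF at 20 ng/ml each. There were 2 libraries of poly(A)+ RNA, NSC replicate 1 and NSC replicate 2, and no other condition was analysed, so the comparisons here are between genes and between these libraries. The study refers to biological replicates, but how the cultures were kept apart is not given in the sources used here, so each SD below (n = 2) measures only the spread between these libraries and may be partly technical.

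Levels are FPKM, the number of sequenced fragments of a gene scaled by its transcript length and by the size of the library, so they can be compared between genes of different length. The lowest value of the files is 0.1, the level to which the study's methods raised lower values for fold changes, so a gene listed at 0.1 had at most that level. The files give no counts, so the depth behind a value is unknown. The label of the cells was checked against markers. All 9 NSC markers, Sox2, Nes, Vim, Fabp7, Slc1a3, Pax6, Hes1, Hes5 and Msi1, were above FPKM 10, with a median of 57.9. All 5 microglial and all 4 endothelial markers were at 0.1 in both libraries. Of 5 neuron markers 2 were above FPKM 1 in both libraries, with Snap25 highest at 10.03 and 10.9, and Stmn2 and Tbr1 were at 0.1. The myelinating oligodendrocyte markers Mog and Mag were at 0.1, and Mobp was at 0.102 and 0.1. None of 4 pericyte and fibroblast markers was above FPKM 1, with Col1a1 highest at 0.307 and 0.249. No list of astrocyte or oligodendrocyte precursor markers was read, so the check does not separate NSCs from those cells. In bulk RNA a low level from all cells and a higher one from few cells cannot be told apart.

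Chaperones bind proteins that are not yet folded or have lost their fold. HSP70 proteins clasp short exposed stretches in a cycle of ATP hydrolysis, which DNAJ proteins start and nucleotide exchange factors of the HSP110 and BAG families end. HSP90 finishes the folding of kinases and receptors, and the chaperonins, TRiC in the cytosol and HSP60 with its lid HSP10 in mitochondria, enclose a protein in a chamber. Heat shock factor 1 drives many of these genes under stress by binding heat shock elements in their promoters, while the endoplasmic reticulum (ER) chaperones answer to the unfolded protein response.

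As a set, these genes were expressed high. In both libraries 70 of the 87 genes (80.5%) were above FPKM 1, against 47.7% of all known genes. Above FPKM 10 were 53 of 87 (60.9%), against 24.5% of known genes. Above FPKM 100 were 16 of 87 (18.4%), against 2.35%. The share of these genes thus exceeded that of all known genes at each limit. At 0.1 in both libraries were 8 of 87 (9.20%), against 40.3%. The median of the mean FPKM was 14.6 for the 87 genes, with quartiles of 4.10 and 50.5, and 0.695 for all known genes. These shares describe the genes and were not tested, because genes of one list are not replicates.

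The 87 genes made up 1.35% ± 0.0097 of the summed FPKM of all known genes (SD, n = 2). A few members carried much of it. Hspa8 alone held 18.7% ± 0.149 of the set's sum, and the 5 highest genes, Hspa8, Hsp90ab1, Hspe1, Hspd1 and Hspa9, held 46.2% ± 0.145 (SD, n = 2).

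The families differed in level and in evenness. The median FPKM was 263 for the HSP60 and HSP10 pair, 168 for HSP90, 129 for TRiC, 41.4 for DNAJA, 26.6 for HSP110 and 14.9 for the heat shock factors. It was 14.0 for BAG, 13.7 for DNAJB, 11.02 for DNAJC, 5.71 for HSP70 and 0.398 for the small HSPs. HSP70 thus held the highest gene of the set and one of the lowest family medians.

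**Figure D1:**
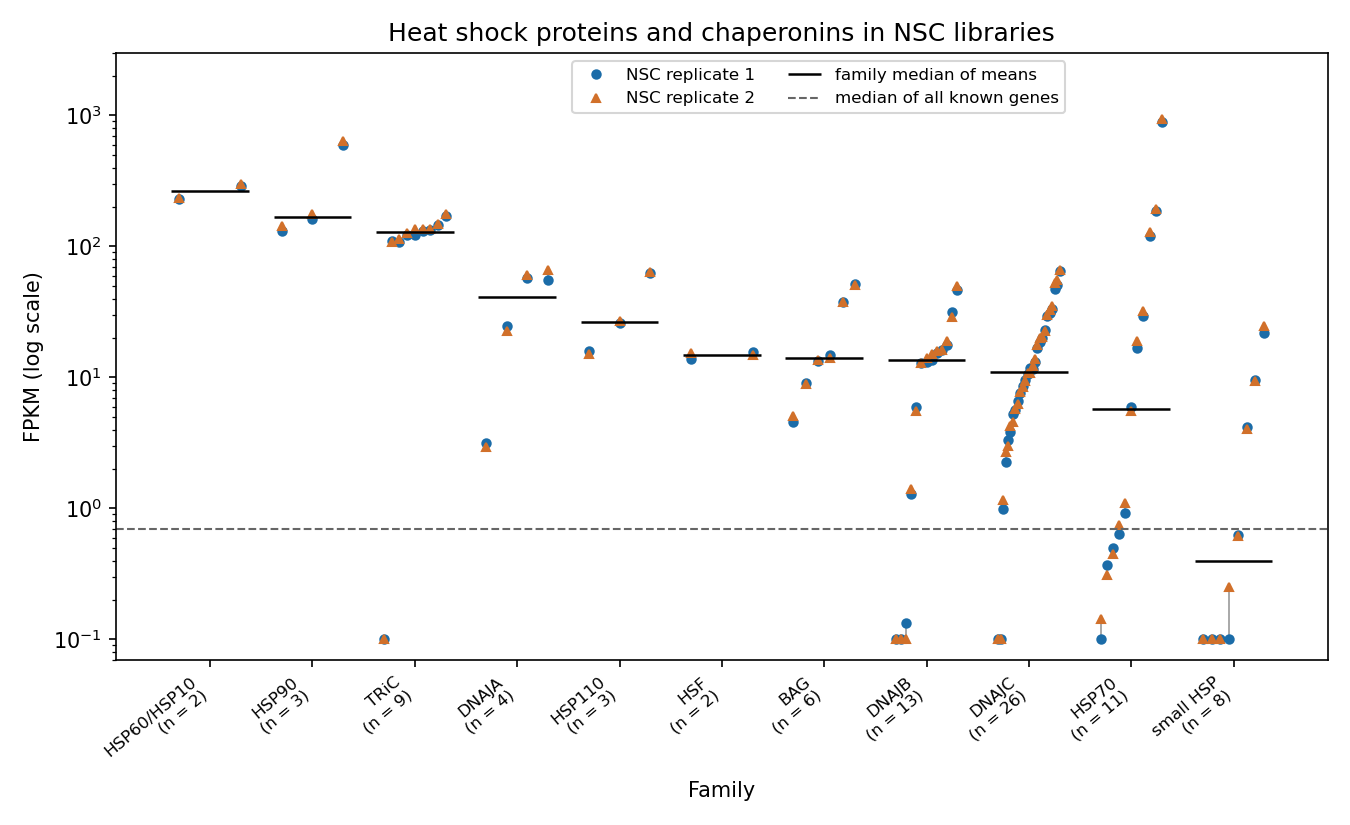
FPKM on a log axis (vertical) of the 87 genes by family (horizontal), with a circle for NSC replicate 1, a triangle for NSC replicate 2, a thin line joining the libraries of a gene, a black bar for the family median of the mean FPKM and a dashed line for the median of all known genes (0.695). TRiC lies in a narrow band near 129 apart from Cct6b at 0.1, whereas HSP70 runs between the highest gene, Hspa8, and genes near 0.1.

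Among the HSP70 genes, the constitutive cytosolic chaperone Hspa8 stood far above the rest. Hspa8 (ENSMUSG00000015656, chr9:40800984-40810087, + strand, GRCm38) was at 886 and 942 FPKM, a mean of 914 ± 39.2. It accounted for 71.1% ± 0.121 of the summed HSP70 family (SD, n = 2). Next came Hspa9, the mitochondrial mortalin that pulls imported proteins through the inner membrane, at 187 and 193, and Hspa5, the ER chaperone BiP, at 120 and 129. The library ranges of Hspa8, Hspa9 and Hspa5 did not overlap.

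Hspa14, which in human cells sits at the ribosome with Dnajc2, was at 29.4 and 32.0 FPKM, and its partner Dnajc2 at 20.0 and 20.2. Hspa13, a microsomal HSP70, was at 16.9 and 19.0. Hspa2, best known for its need in male germ cells, was at 5.91 and 5.51. These lower cytosolic and ER genes still exceeded the median of all known genes.

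The heat-inducible HSP70 genes were at the other end. Hspa1a (chr17:34969190-34972156, - strand) was at 0.503 and 0.451 FPKM, and Hspa1b (chr17:34956436-34959238, - strand) at 0.640 and 0.744. The pair shares much of its sequence: of the 100-base words of their transcripts, 47.1% of Hspa1a and 49.9% of Hspa1b also occurred in the other gene, so the split between them is uncertain, and their sum is the safer value. Hspa8 was 782 ± 8.80 times the sum of the pair (ratio of FPKM, SD, n = 2).

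Hspa1l, the neighbour of Hspa1a that is expressed chiefly in testis, was at 0.918 and 1.11. On the opposite strand 71.9% of its exon bases and 19.0% of those of Hspa1a overlap exons of other annotated genes. Since the library kit kept no strand information, fragments of such a partner and of the member cannot be told apart. Gm10501, the partner of Hspa1l, was itself listed at 0.1 in both libraries. The distant relatives Hspa12a, at 0.368 and 0.312, and Hspa12b, known from endothelium, at 0.1 and 0.142, closed the family. None of these 5 genes was above FPKM 1 in both libraries.

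**Figure D2:**
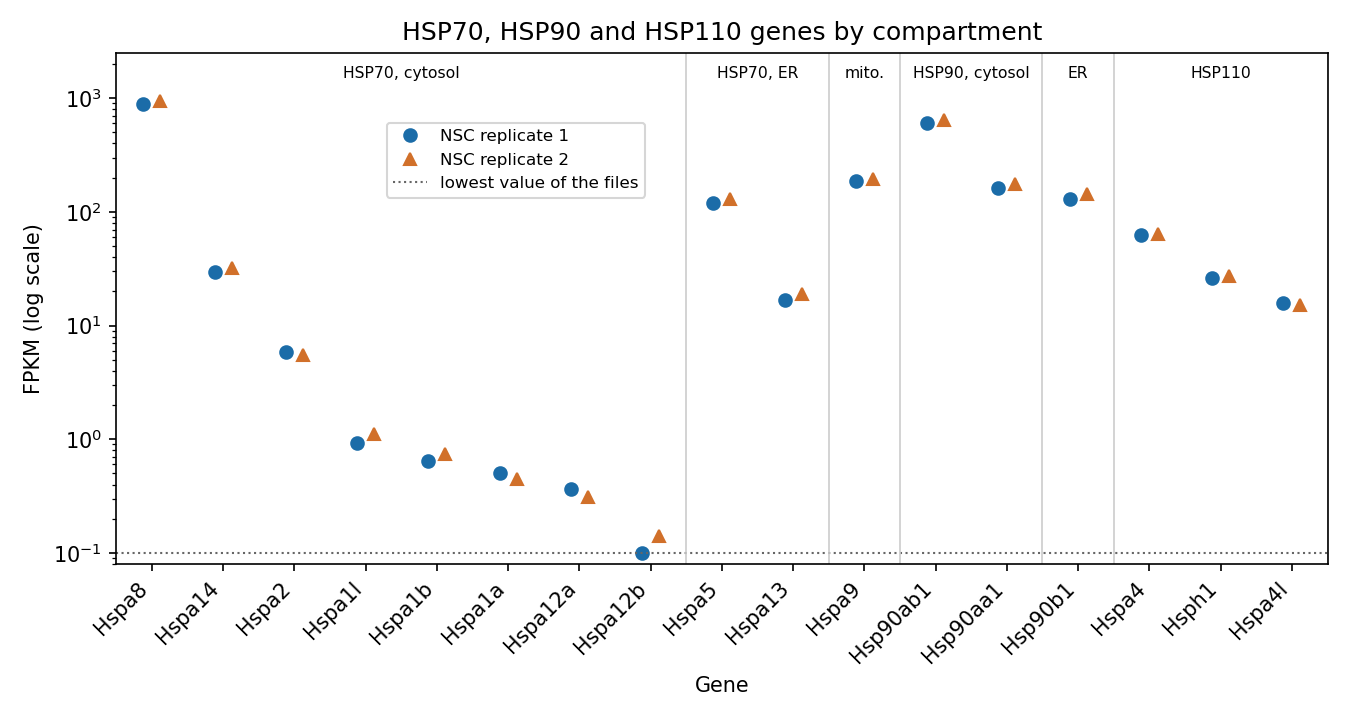
FPKM on a log axis (vertical) of each HSP70, HSP90 and HSP110 gene (horizontal), arranged by compartment (mito., mitochondrion), with a circle for NSC replicate 1 and a triangle for NSC replicate 2, and a dotted line at the lowest value of the files (0.1). Hspa8 at 886 and 942 and Hsp90ab1 at 601 and 644 lead their families, and Hspa1a and Hspa1b lie below 1 in both libraries.

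All 3 HSP110 genes, the nucleotide exchange factors related to HSP70, were above FPKM 10. Hspa4 was at 63.0 and 63.8, Hsph1 at 26.1 and 27.1, and Hspa4l at 15.9 and 15.2. Their library ranges did not overlap. The summed cytosolic HSP70 genes stood at 9.03 ± 0.326 times the summed HSP110 genes and 7.29 ± 0.343 times the summed BAG genes (SD, n = 2). Bag6, which guards tail-anchored and mislocalised proteins, made up 39.3% of the summed BAG genes.

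The HSP90 genes were all above FPKM 100. Hsp90ab1 (chr17:45567775-45573271, - strand), the constitutive cytosolic form, was at 601 and 644. Hsp90aa1, the cytosolic form that heat induces further, was at 161 and 176, and Hsp90b1, the ER form GRP94, at 130 and 144. The ratio of Hsp90ab1 to Hsp90aa1 was 3.69 ± 0.0491 (SD, n = 2), so the constitutive form was the higher in either library. Near-copies of some of these transcripts exist in the genome. Of the 100-base words of their transcripts, 62.8% for Hspa8 and 47.5% for Hsp90aa1 also occurred in other annotated genes, chiefly processed pseudogenes that are not among the known genes of the files, and how reads were shared with those was not tested.

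The HSP90 co-chaperones, a list outside the symbol rule, were broadly present. All 13 were above FPKM 1 and 12 of 13 above FPKM 10, with a median of 40.8. The highest were Ptges3 (p23, which stabilises the closed HSP90 clamp) at 131 and 132, the immunophilin Fkbp4 at 85.5 and 87.7, and Stip1 (HOP, which bridges HSP70 and HSP90) at 69.1 and 74.8. The lowest was the myosin chaperone Unc45a at 7.34 and 7.65. Likewise 8 of 8 HSP70 cofactors were above FPKM 1, led by St13 at 116 and 111, Stub1 (the ubiquitin ligase CHIP) at 53.8 and 52.2 and Hspbp1 at 25.4 and 25.2. Grpel2, a mitochondrial nucleotide exchange factor, was lowest at 6.45 and 7.04.

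TRiC, the ring of 8 different subunits that folds actin and tubulin in the cytosol, was expressed evenly apart from 1 variant subunit. Cct2 was at 170 and 178, Cct5 at 146 and 149, Cct3 at 133 and 137, and Cct6a at 132 and 137. Cct8 was at 123 and 135, Cct4 at 123 and 128, Tcp1 at 109 and 114, and Cct7 at 109 and 108. The highest subunit was 1.60 ± 0.0677 times the lowest (SD, n = 2).

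Among the 8 subunits the coefficient of variation was 15.6%, against a median of 2.51% between the libraries of 1 subunit. Several neighbours in the order could not be separated: the library ranges overlapped for Cct3 and Cct6a, Cct6a and Cct8, Cct8 and Cct4, and Tcp1 and Cct7. Cct2 stood clear of Cct5, Cct5 of Cct3, and Cct4 of Tcp1. Cct6b, the variant subunit known from testis, was at 0.1 in both libraries. Of the exon bases 12.49% in Cct6a and 11.4% in Tcp1 overlap an opposite gene, Psph and Acat3.

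Prefoldin, which hands nascent actin and tubulin to TRiC, was lower and less even. Of its 6 subunits 5 were found in the table by symbol. Pfdn5 was highest at 94.8 and 95.2, Vbp1 was at 74.98 and 85.1, Pfdn1 at 57.7 and 59.8, and Pfdn4 lowest at 30.6 and 32.3. The highest was 3.02 ± 0.104 times the lowest, and the coefficient of variation was 39.2%. The median TRiC subunit was 2.24 ± 0.0436 times the median prefoldin subunit (SD, n = 2).

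The clients of TRiC were abundant. The 9 actin and tubulin genes had a median of 470 FPKM, with Actg1 at 1412 and 1499, Tuba1a at 1194 and 1262 and Actb at 903 and 846. The neuronal tubulin Tubb3 was lowest at 6.61 and 6.13. Of 4 phosducin-like TRiC cofactors 3 were above FPKM 10, with Pdcl3 at 26.1 and 27.6, Pdcl at 24.7 and 25.6 and Txndc9 at 12.2 and 13.4. The germ-cell cofactor Pdcl2 was at 0.1, as was Cct6b.

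**Figure D3:**
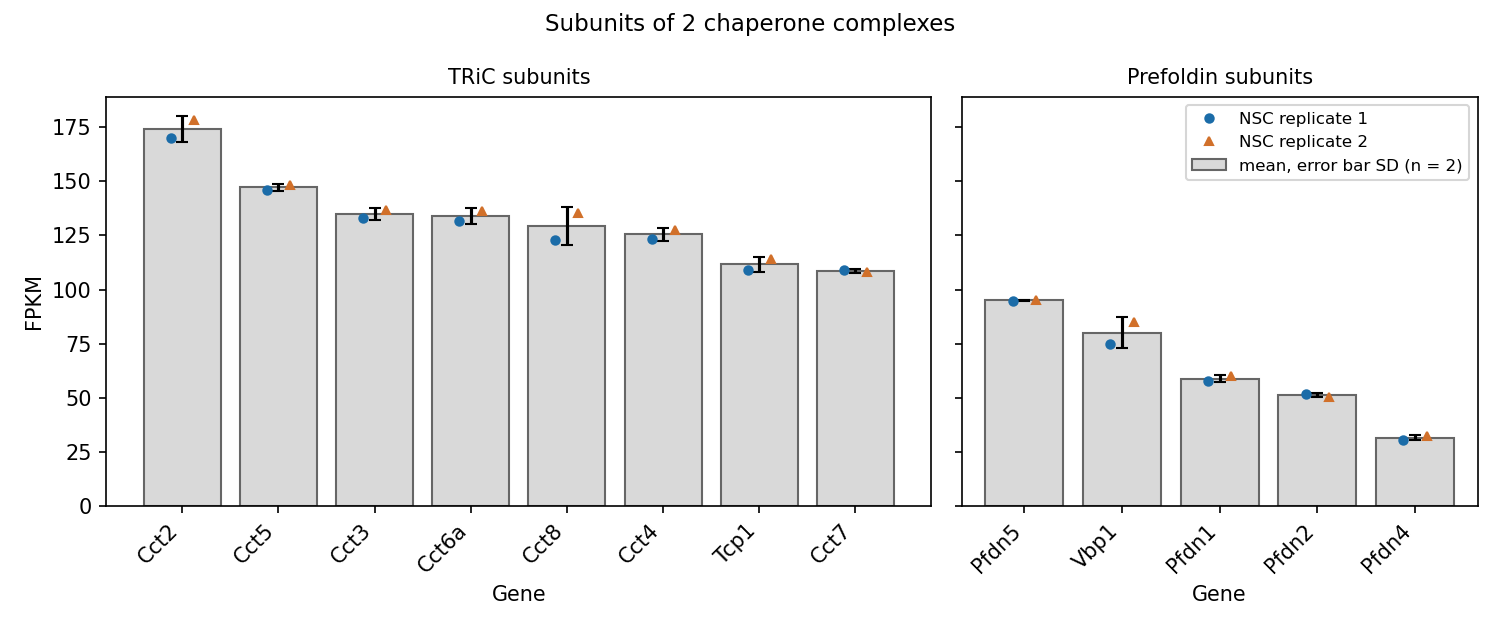
FPKM (vertical, from 0) of the 8 constitutive TRiC subunits (left) and the 5 prefoldin subunits found (right), with bars for the mean, error bars for the SD (n = 2), circles for NSC replicate 1 and triangles for NSC replicate 2. TRiC spans 109 to 174 in mean FPKM and prefoldin 31.5 to 94.96.

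The mitochondrial chaperonin genes followed directly on Hspa8 and Hsp90ab1 in level. Hspe1, the HSP10 lid, was at 288 and 301, and Hspd1, the HSP60 chamber, at 231 and 235. The ratio of Hspe1 to Hspd1 was 1.26 ± 0.0245 (SD, n = 2). These neighbours lie head to head on chromosome 1, Hspd1 on the - strand at chr1:55077835-55088243 and Hspe1 on the + strand at chr1:55088132-55091307, and their RefSeq starts are 216 bases apart. Their GENCODE exons overlap by 112 bases, 4.24% of those of Hspd1 and 7.60% of those of Hspe1. Without strand information, fragments from that stretch cannot be assigned to either gene. Of their 100-base words, 26.9% for Hspd1 and 20.4% for Hspe1 also occur in other annotated genes that are not in the files.

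The DNAJ genes choose the clients of HSP70 and are the largest group. Of 43 members, 37 were above FPKM 1 and 25 above FPKM 10 in both libraries, none was above FPKM 100, and 4 were at 0.1. The highest was 65.3, for Dnajc7. The 44 genes outside the DNAJ group included all 16 that exceeded FPKM 100.

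Among the DNAJ genes assigned to the cytosol by hand, the highest were close together. Dnajc7, a partner of both HSP70 and HSP90, was at 65.0 and 65.6, Dnaja1 at 55.5 and 65.8, and Dnaja2 at 57.6 and 60.5. Dnaja1 and Dnaja2 are the general partners of Hspa8, and the library range of Dnaja1 overlapped those of Dnajc7 and Dnaja2, which did not overlap each other. Dnajc9, a chaperone of histones, was at 51.2 and 55.5, and Dnajc8, a spliceosome-associated protein, at 47.1 and 52.3. Dnajb6, which restrains polyglutamine aggregation and shares 31.0% of its 100-base words with other genes, was at 46.5 and 50.3, and Dnajb5 at 17.6 and 19.0. The heat-inducible Dnajb1 (HSP40) was at 15.3 and 15.9.

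The summed cytosolic HSP70 genes were 1.88 ± 0.00859 times the summed DNAJ genes assigned to the cytosol (SD, n = 2). That assignment was made by hand. It takes in the histone chaperone Dnajc9 and the spliceosome-associated Dnajc8, at means of 53.4 and 49.7. The ratio depends on this choice, which its SD does not cover. The lowest DNAJA gene was Dnaja4, at 3.16 and 2.97, and 44.1% of its exon bases overlap exons of the opposite gene Wdr61. Dnajb7, Dnajb8, Dnajc6 and Dnajc22 were at 0.1 in both libraries. Dnajb8 is known from testis, and Dnajc6 is the neuronal auxilin that lets HSP70 strip clathrin off synaptic vesicles. Dnajb13, a part of the sperm tail, was at 0.133 and 0.1. Dnajc5, the cysteine string protein of synaptic vesicles, was at 29.3 and 30.1. The remaining cytosolic or unassigned DNAJ genes, Dnajb2, Dnajb3, Dnajb4, Dnajc4, Dnajc12, Dnajc13, Dnajc14, Dnajc16, Dnajc17, Dnajc18, Dnajc21, Dnajc24, Dnajc25 and Dnajc27, lay between a mean of 1.35 for Dnajb3 and 17.1 for Dnajc24.

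In the ER lumen, all 8 members were above FPKM 1 and 7 of 8 above FPKM 10, with a median of 24.1. Beside Hsp90b1, Hspa5 and Hspa13 these were 5 DNAJ genes. Dnajc10, which reduces disulfides, was at 33.1 and 35.2, and Dnajb11, a BiP partner for secreted proteins, at 31.5 and 29.1. Dnajb9, a partner in ER-associated degradation, was at 12.8 and 12.8, Dnajc3 (P58IPK) at 11.7 and 12.1, and Dnajc1 at 7.58 and 7.81. Hspa5 was 1.29 ± 0.0601 times the sum of these DNAJ genes (SD, n = 2). This ratio depends on the assignment by hand, which its SD does not cover. Dnajb12 and Dnajb14, assigned to the ER membrane as a separate group, were at 13.2 and 14.2 and at 5.95 and 5.59.

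In mitochondria, 8 of 9 members were above FPKM 1 in both libraries, with a median of 23.7. Dnajc19 and Dnajc15, of the import motor, were at 30.8 and 32.9 and at 18.6 and 20.1. Dnaja3, the matrix partner of Hspa9, was at 24.6 and 22.8, and Dnajc11, an inner membrane organiser, at 22.9 and 22.6. Dnajc30 was at 11.9 and 10.8, and Dnajc28 lowest at 0.990 and 1.15. Hspa9 was 1.72 ± 0.0343 times the sum of these DNAJ genes (SD, n = 2), which also depends on the assignment by hand. The 59 members assigned to the cytosol had a median of 14.5, and 44 of them were above FPKM 1 in both libraries.

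The BAG genes, several of which release clients from HSP70, were all above FPKM 1. Bag6, which guards tail-anchored and mislocalised proteins, was at 51.6 and 51.1, and Bag1 at 37.7 and 37.6. Bag3, the autophagy partner of Hspb8, was at 14.9 and 14.2. Bag5 at 13.4 and 13.5 and Bag2 at 9.07 and 8.96 followed, and Bag4 was lowest at 4.59 and 5.10.

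The small HSPs, which hold unfolded proteins in large oligomers, were the lowest family. Of 8 genes only Hspb11, Hspb6 and Hspb8 were above FPKM 1, and these held 97.1% ± 0.120 of the family's sum (SD, n = 2). Hspb11, at 21.9 and 24.7, is known as the intraflagellar transport protein IFT25 of cilia, a role outside protein folding. Hspb6 was at 9.54 and 9.41, and Hspb8 at 4.17 and 4.08. Hspb1 (HSP25), strongly heat-inducible in many cells, was at 0.624 and 0.620. Its level is uncertain because 42.7% of its 100-base words also occur in the pseudogene Hsp25-ps1.

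Hspb3, Hspb7 and Hspb9 were at 0.1 in both libraries. Hspb2, at 0.1 and 0.250, shares 30.2% of its exon bases with the opposite neighbour Cryab. Cryab, the alpha-B crystallin, is a small HSP whose symbol the rule did not take. It was at 26.0 and 26.2, above every small HSP that the rule took, and 42.0 ± 0.454 times Hspb1 (SD, n = 2). Its lens relative Cryaa was at 0.1.

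The heat shock factors themselves were moderate. Hsf1, the main regulator of the heat shock response, was at 15.6 and 14.9, and Hsf2, which also acts in development, at 13.8 and 15.3. Their library ranges overlapped and the order changed between the libraries. The other factors were low, with Hsf4 at 0.220 and 0.202 and Hsf3 and Hsf5 at 0.1.

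Of 12 textbook heat-inducible HSF1 targets, 9 of them members, 9 were above FPKM 10. The other 3 were Hspa1a, Hspa1b and Hspb1, all below FPKM 1 in both libraries. Between these groups lay a wide gap: the lowest of the 9 was Bag3, at 14.9 and 14.2, and the highest of the 3 was Hspa1b, at 0.640 and 0.744.

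Promoter sequence was set beside these levels. RefSeq promoter windows (GRCm38.p6, 250 bases before to 50 bases after each annotated start) matched 71 of the 87 members. A heat shock element pair was searched as GAANNTTC or TTCNNGAA, each of which reads the same on both strands, and a triplet as 3 such alternating units in a row, so that a triplet also counts as overlapping pairs. An ER stress element was searched on both strands as CCAAT and CCACG with 9 bases between. Only exact letters were counted. A longer element with an inexact unit is therefore listed as a shorter one or not at all. A match is a description of the letters and not a bound site.

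The pair occurred in 19 of 71 members (26.8%), against 2560 of 16311 known genes (15.7%). The triplet occurred in 4 of 71 (5.63%), Hspd1, Hspe1, Dnajb6 and Hsph1, against 0.668% of known genes. Hspd1 and Hspe1 hold the same stretch, read on opposite strands, so it is counted for both. The ER stress element occurred in 3 of 71 (4.23%), Hspa5, Hsp90b1 and Dnajc3, against 0.147%. RefSeq gave more than 1 window for 18 members, and these had more sequence in which to match.

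The ER set is shown because all of its genes serve the ER lumen, and each stretch is printed from 25 bases before the first element to 25 bases after the last. The capitals mark the element. Hspa5 is at chr2:34772000-34772068 (+ strand), Hsp90b1 at chr10:86705508-86705681 (- strand) and Dnajc3 at chr14:118937802-118937870 (+ strand), in GRCm38.p6.
Hspa5: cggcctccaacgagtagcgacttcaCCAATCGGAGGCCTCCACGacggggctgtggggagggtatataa
Hsp90b1: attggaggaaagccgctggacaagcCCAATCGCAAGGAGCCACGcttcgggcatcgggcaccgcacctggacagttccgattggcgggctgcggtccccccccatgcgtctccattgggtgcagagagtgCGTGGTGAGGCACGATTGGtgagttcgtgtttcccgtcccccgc
Dnajc3: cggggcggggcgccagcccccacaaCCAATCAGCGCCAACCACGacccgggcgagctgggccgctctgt

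Hsp90b1 held 2 elements, the second in the reverse orientation. The levels of these genes were unequal, since Hsp90b1 was at 130 and 144 and Hspa5 at 120 and 129, but Dnajc3 at 11.7 and 12.1. The heat shock elements are shown next for genes at opposite ends of the level range. The first pair are triplet genes, Hspe1 at chr1:55088034-55088101 (+ strand) and Dnajb6 at chr5:29735827-29735889 (+ strand). The others hold only pairs by this exact search, which does not exclude longer elements with inexact units. They are Hspb1 at chr5:135887777-135887854 (+ strand), Hspa1a at chr17:34972228-34972285 (- strand) and Hspa1b at chr17:34959310-34959367 (- strand). The capitals mark the heat shock elements.
Hspe1: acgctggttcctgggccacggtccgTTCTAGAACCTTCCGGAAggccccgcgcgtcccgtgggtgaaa
Dnajb6: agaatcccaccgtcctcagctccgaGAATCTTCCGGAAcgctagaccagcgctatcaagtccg
Hspb1: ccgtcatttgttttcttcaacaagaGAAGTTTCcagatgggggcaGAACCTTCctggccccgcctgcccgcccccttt
Hspa1a: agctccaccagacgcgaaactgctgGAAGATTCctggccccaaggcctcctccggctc
Hspa1b: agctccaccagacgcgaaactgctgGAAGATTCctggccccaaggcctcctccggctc

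The 18 capitals of Hspe1 lie at chr1:55088059-55088076, and the element found in the Hspd1 window is the same stretch read on the other strand, at -144 to -127 from the Hspd1 start and -89 to -72 from the Hspe1 start. The windows of Hspa1a and Hspa1b were 98.7% identical, with 4 of 300 bases different, and the element pair began at -104 from the start in both. The median FPKM was 14.5 for the 19 members with a pair and 13.6 for the 52 without. It was 141 for the 4 members with a triplet and 13.5 for the 67 without. Hspd1 and Hspe1 both count among the 4 although they share 1 stretch, and Dnajb6 and Hsph1 had means of 48.4 and 26.6. For the ER stress element the median was 125 for the 3 members with it and 14.0 for the 68 without. Members with a pair, which include the triplet genes, thus had nearly the same median as those without. The few with a triplet or an ER stress element had a higher one, which was not tested. Hspa8, Hsp90ab1, Hspa9 and Hsp90aa1, all above FPKM 100, had no matched window and are in none of these groups. Levels ranged widely in both groups. Hspe1 with a triplet was at 288 and 301, and Hsph1, whose triplet lies after the annotated start, at 26.1 and 27.1. Without an exact triplet, Cct2 with a pair was at 170 and 178, and Hspb1 with 2 separate pairs at 0.624 and 0.620.

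**Figure D4:**
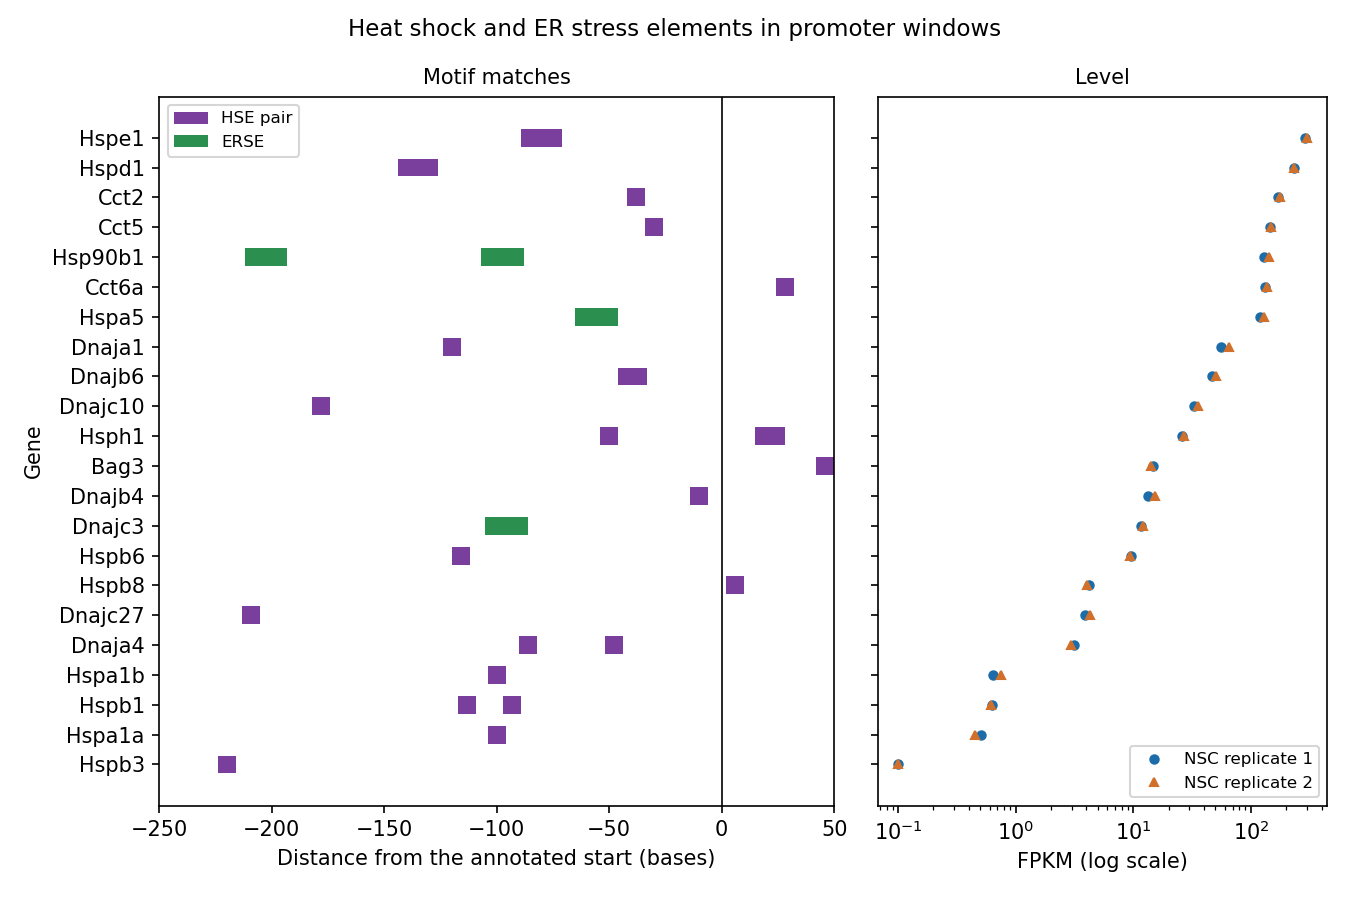
Position of heat shock element pairs (HSE pair) and ER stress elements (ERSE) in the promoter window of each member with a match (left, distance from the annotated start in bases, first window of a gene) and its FPKM on a log axis (right, circle for NSC replicate 1, triangle for NSC replicate 2). Genes are ordered by level, and pairs occur both at Hspe1, at 288 and 301, and at Hspb3, at 0.1.

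The libraries were close to each other. Over the 72 members with a mean above FPKM 1, the median absolute log2 ratio of the libraries was 0.07, against 0.08 for 11185 known genes above the same limit. In this range 50 of 72 members (69.4%) were higher in replicate 2, against 56.2% of known genes, where all known genes summed to 352990 FPKM for replicate 1 and to 367131 FPKM for replicate 2. Only 1 of 72 members (1.39%) was more than 1.2-fold apart, against 5.95% of known genes. This was Hspa1l, at 0.918 and 1.11, just past that limit. The comparison was not matched for level: in this range the median of the mean FPKM was 18.8 for members and 10.6 for known genes.

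Next came Dnaja1 (1.19-fold), Dnajc12 (1.18-fold) and Dnajc28 (1.17-fold), all higher in replicate 2. Dnajc4, at 5.29 and 4.54, was 1.17-fold higher in replicate 1. Among the low members, 3 were at 0.1 in exactly 1 library, namely Hspb2, Hspa12b and Dnajb13.

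**Figure D5:**
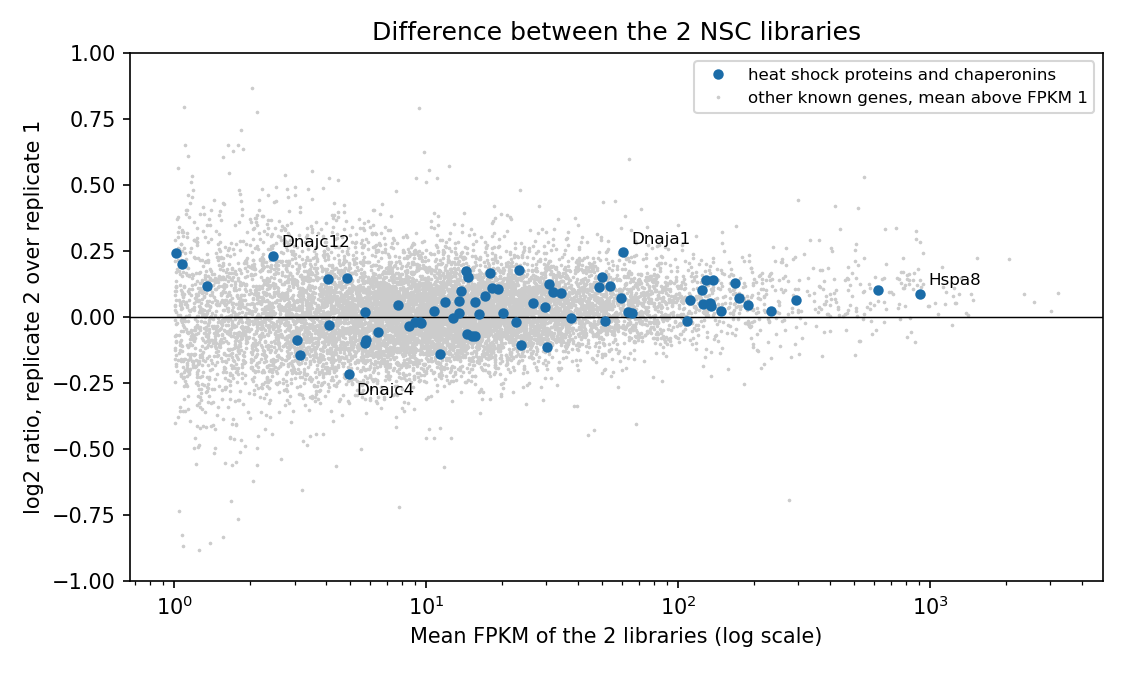
log2 ratio of FPKM in replicate 2 over replicate 1, with 0.1 added to each (vertical), against the mean FPKM on a log axis (horizontal), for the members above FPKM 1 (large points) and other known genes above FPKM 1 (small points). The axis is cut at a log2 ratio of 1 in either direction, which leaves out 12 of 11113 other genes, and the member farthest from 0 is Dnaja1, at 0.25.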

How the data were processed

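As stated in the submitters' processing notes and the methods of the paper, paired reads of both NSC libraries were aligned to mm10 with TopHat2 2.0.11 and Bowtie2 2.2.2. The authors then ran Cufflinks 1.3.0 on a joint annotation of lncRNAs and UCSC genes, correcting for bias and for reads that map to several places, which affects genes with near-copies. The deposited FPKM values are per library, without pooling. Both deposited tables have a minimum of 0.1, to which the authors' methods raise lower values for fold changes. Whole reads could not be recovered from the low values, so the depth is unknown and the agreement of the 2 libraries is the only measure of precision.

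Members were taken by symbol, and families and compartments were assigned by hand. The members and lists were chosen with earlier results of these data known. One gene of the marker lists is not reported here. Genes above a limit passed it in both libraries unless a mean is stated, and log2 ratios used a pseudocount of 0.1. No test was run, because 1 condition gives nothing to test. Named genes were all HSP90, HSP70, TRiC, HSP60, HSP10 and HSF members, the 3 highest and the lowest of the other families and of the companion lists (marker lists are given by counts and single genes), members at 0.1 and the 5 with the largest library ratio. Whole compartments, further DNAJ genes and genes with a motif were named after their values were seen.

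Positions, exon overlaps and shared 100-base words (longest protein-coding transcript, 86 of 87 members, all but Cct6a) came from GENCODE M21 on GRCm38, and promoters from RefSeq. Promoters were not matched for Bag4, Cct4, Dnajc2, Dnajc5, Dnajc11, Dnajc12, Dnajc18, Dnajc22, Dnajc30, Hsf1, Hsp90aa1, Hsp90ab1, Hspa8, Hspa9, Hspa13 and Hspb2. Python 3.11.15, NumPy 2.4.6, pandas 2.3.3 and matplotlib 3.10.9 were used, and the calculations were tested on simulated data.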

Additional observations from a re-analysis of the deposited data

How the results depend on the processing

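No paired analysis was possible because the series has 1 condition, so that there are no groups to pair. Of 30 alternative settings for the 8 main values, 23 left the value within a set spread (for counts, within 1.5 times). That spread was the SD between the libraries, except for the log2 ratio, where it was the SD over members. For a ratio or a share, the value without either replicate must lie within that SD. Those settings could not count as moved and say nothing about stability. For the log2 ratio, the allowed spread of 0.0952 was larger than the value itself, 0.0726, so its settings say little too. The median FPKM of the members was 14.6, and 14.9 to 15.2 when either replicate was left out. It was 16.1 over members with a mean above FPKM 0.1. It was 14.3 without the 10 members that share over 10% of their 100-base words with another gene, a setting chosen after seeing the data. The geometric mean over all members, a different measure of centre, was 10.1. With Cct6b in place of Cct6a, the ratio of the highest to the lowest TRiC subunit was 1741, in place of 1.60, because Cct6b is at the lowest value of the files. Leaving out the 10 highest known genes made the members' share of summed FPKM 1.44%, in place of 1.35%. At the limit of FPKM 1 the count of members was 63 to 72 over the settings, with 63 left when the 10 with shared words were dropped, and it was 76 above a limit of 0.1 and 62 above a limit of 5. Unknown depth limits every value near 0.1. Shared sequence, over 10% of 100-base words, limits the single levels of Hspa8, Hspa1a, Hspa1b, Hsp90aa1, Hspb1, Dnajb6, Hspd1, Hspe1, Dnaja1 and Hspa14. Exons on the opposite strand, over 10% of exon bases, may limit those of 12 members, with the largest exon shares at Hspa1l and Dnaja4. The partner of Hspa1l was itself at 0.1 in both libraries, whereas Wdr61, that of Dnaja4, was at 40.3 and 43.9.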

Other observations

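Genes that work beside the chaperones were also read from lists outside the symbol rule, with no test. All 12 ER folding enzymes and lectins were above FPKM 1 and 10 of 12 above FPKM 10, with a median of 60.7. The lectin chaperone Calr was highest at 190.0 and 201 FPKM, followed by Ppib, a prolyl isomerase, at 144 and 161 and the membrane lectin Canx at 147 and 149. The oxidase Ero1lb was lowest, with a mean of 1.35 ± 0.0642 (SD, n = 2). Thus Calr, Ppib and Canx each had a higher mean than Hspa5 (125) and Hsp90b1 (137).

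The regulators of the unfolded protein response were lower, with a median of 8.43 and 3 of 8 above FPKM 10. Atf4, a transcription factor controlled largely at translation, was the exception at 201 and 199, and next came Ddit3 (CHOP) at 13.9 and 13.8 and Xbp1 at 13.46 and 12.9. The sensor Ern1 (IRE1) was lowest at 1.78 and 1.34.

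All 7 mitochondrial genes of the protease and Trap1 list were above FPKM 10, with a median of 26.0. Trap1, the mitochondrial HSP90, was highest at 44.3 and 44.7, followed by the inner membrane protease Yme1l1 at 30.5 and 32.9 and Clpp at 29.5 and 30.7, and Clpx, the unfoldase that feeds Clpp, was lowest at 14.0 and 15.6. Trap1 is a HSP90 family protein whose symbol the rule did not take, and it was below all 3 HSP90 genes that the rule took. Of the 5 tubulin folding cofactors, which act after TRiC, Tbca stood out at 143 and 147, followed by Tbcb at 35.4 and 36.0 and Tbce at 14.7 and 14.6, and Tbcc was lowest at 8.17 and 7.72.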
